A study of Mus musculus with 4 samples.

Results

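The clustered protocadherins are a family of cadherin-like cell surface proteins encoded side by side on mouse chromosome 18. They were picked out by name in the deposited tables, as every gene symbol made of Pcdha, Pcdhac, Pcdhb, Pcdhga, Pcdhgb or Pcdhgc and a number, which gave 58 of 55487 genes. Of these, 14 lie in the alpha cluster, 22 in the beta cluster and 22 in the gamma cluster. The family was put forward after Pcdhb22 had been seen to fall between the groups compared here. Every difference between the groups given for a member is therefore a description. Calls at a p threshold are counted beside the share of all genes called, no p-value of a member is given, and no call supports a finding. Levels and annotation come first.

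RNA-seq was done on freshly isolated satellite cells, the stem cells that repair skeletal muscle. The Rbfox2 cKO group (2 libraries) came from mice with floxed Rbfox2, a Pax7CreERT2 driver and a Rosa26 EYFP reporter, in which tamoxifen deletes Rbfox2 in cells that express Pax7 and yellow fluorescence marks them. The other group (2 libraries) is labelled Control, and which of these alleles it carries, the age of the mice and whether libraries came from separate animals are not stated in the labels. Spread between the libraries of a group may therefore be technical.

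The libraries held between 68884091 and 101997422 estimated counts. Rbfox2, an RNA-binding regulator of splicing and the deleted gene, stood at 49.5 and 27.4 TPM (a level corrected for transcript length and library depth) in Control 1 and 2 and at 20.9 and 12.2 TPM in cKO 1 and 2. The 14 satellite cell markers were all detected and summed to between 17951 and 18502 TPM, with Sdc4, Myod1 and Vcam1 the highest. Over 8 neuronal markers the level summed to 4.99, 5.02, 9.69 and 4.32 TPM in Control 1, Control 2, cKO 1 and cKO 2. Stmn2, Rbfox3 and Snap25 were the highest of them, with means over all libraries of 1.99, 1.08 and 1.04 TPM. These means lay above that of the median clustered protocadherin, 0.910 TPM, and the other neuronal markers lay below it. The part of neuronal RNA in the family's levels was not tested. Fibro-adipogenic (connective tissue cell) markers summed to 751 and 843 TPM in Control 1 and 2 and 892 and 738 TPM in cKO 1 and 2 over 9 genes. Pericyte and smooth muscle markers summed to 148.2 and 141.4 against 163.5 and 136.1 TPM over 7 genes. Tenocyte (tendon cell) markers summed to 22.3 and 26.4 against 42.4 and 26.0 TPM over 4 genes. Erythroid markers, red cell genes led by the globins, differed between the groups, with 5 of 7 called higher by edgeR and 0 by DESeq2. Their summed level was 337 and 764 TPM in Control 1 and 2 and 1800 and 1471 TPM in cKO 1 and 2. The part of red cell RNA in the differences below was not tested. Immune markers summed to 22.5 and 20.4 TPM in Control 1 and 2 against 31.5 and 29.6 TPM in cKO 1 and 2. The log2 fold change was positive for 7 of 7 genes. Cd68, the largest part, had 15.9, 13.9, 16.4 and 23.4 TPM in Control 1, Control 2, cKO 1 and cKO 2. In cKO 2, Ptprc, Csf1r and Adgre1 were below both Control libraries in TPM, and Cd68, C1qa and Cd79a were above both. Endothelial markers summed to 142.0 and 154.5 against 196.8 and 164.0 TPM over 8 genes, and Schwann and glial markers to 34.4 and 33.9 against 46.5 and 40.4 TPM over 8 genes. On this TPM scale the sums of these 3 lists were higher in both cKO libraries, and all their genes were detected. In the 8 marker lists other than the erythroid one, edgeR, DESeq2 and limma called 0 genes, with 1 (Pax7) at an unadjusted p under 0.05. Pax7, the gene whose regulatory sequence drives the Cre, was at 7.9 and 7.0 TPM in Control 1 and 2 and at 15.9 and 13.5 TPM in cKO 1 and 2.

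The cKO 1 library had more signal over genes of other tissues. For 1436 receptors of smell and pheromones (olfactory and vomeronasal), the median TPM was 0.347 and 0.417 in Control 1 and 2, 0.689 in cKO 1 and 0.247 in cKO 2. This median serves below as a yardstick for background. Single receptors reached 5.23, 6.05, 7.76 and 5.64 TPM in Control 1, Control 2, cKO 1 and cKO 2. The median over all genes was close to the yardstick, at 0.392, 0.437, 0.771 and 0.312 TPM in the same order. A gene above the yardstick is therefore not shown to stand above background.

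Clustered protocadherins bind the same isoform on a neighbouring cell through their extracellular cadherin repeats. In neurons each cell uses its own combination of isoforms, which lets a cell tell its own branches from those of others. Each alpha and gamma isoform has its own promoter and large variable exon, which is spliced to constant exons that all isoforms of the cluster share and that encode a common cytoplasmic part. Beta genes have no constant exons. The C-type isoforms, Pcdhac1, Pcdhac2, Pcdhgc3, Pcdhgc4 and Pcdhgc5, sit next to the constant exons and in neurons are used more uniformly than the others. CTCF and cohesin fold the promoters towards distant enhancers, and DNA methylation and Smchd1 keep them silent.

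That gene structure bears on what a count per gene can mean. In GENCODE M21 on GRCm38 the alpha cluster spans chromosome 18, 36930184 to 37187661, the beta cluster 37264938 to 37524479 and the gamma cluster 37661793 to 37841873, all on the plus strand. An alpha gene shares between 38.0% and 54.9% of its exonic bases with other alpha genes (median 53.4%), and a gamma gene between 27.8% and 66.8% with other gamma genes (median 44.7%). Reads over these constant exons carry no mark of the variable exon they came from unless they cross the junction, so how they were divided among members is uncertain. Of the 22 beta genes, 18 have only single-exon transcripts, and over all 22 the median share of 50-base words found in other members is 4.26%. Counts of beta genes are the least exposed to such division, apart from Pcdhb21 and Pcdhb22, the only beta genes whose exons overlap.

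Overlapping genes limit some values further. Exons of 4 alpha genes, 1 beta gene and 8 gamma genes overlap a gene on the opposite strand, and the strand setting of the counting is not given in the sources used here. Among the 12 members with the highest mean TPM this touches Pcdhgc3, where the antisense gene BC037039 covers 1559 exonic bases, and Pcdhga7, where Gm37165 covers 536. BC037039 itself was listed at 0.364, 0.896, 0.849 and 0.915 TPM in Control 1, Control 2, cKO 1 and cKO 2, and Gm37165 at 0.190, 0.0588, 0.0449 and 0.208 TPM. These levels also rest on how reads over the overlapping bases were assigned, which was not tested. The read-through genes Gm42416, Gm37013 and Gm37388, annotated from the alpha to the gamma cluster, were listed at 0 in every library.

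In these bulk libraries the family's transcripts were mainly gamma and beta. Which cells in them carried the transcripts was not tested. Summed over members, gamma genes reached 50.3, 54.3, 80.3 and 57.0 TPM in Control 1, Control 2, cKO 1 and cKO 2. Beta genes reached 41.1, 35.3, 40.5 and 33.5 TPM in the same order. Alpha genes reached 1.65, 1.46, 3.46 and 1.87 TPM, which is between 1.60% and 2.78% of the family's summed TPM. In each of the 4 libraries gamma was above beta and beta above alpha.

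Of the 58 members, 18 had at least 1 TPM in all 4 libraries, 9 of them beta and 9 gamma. A further 19 reached 1 TPM in some libraries, and 21 in none, among them all 14 alpha genes. Against the receptor median, 16 of 22 beta and 15 of 22 gamma genes lay above it in all 4 libraries, and 0 of 14 alpha genes did. Of the alpha genes 13 lay below it in every library. Pcdhb1 and Pcdhgb8, chosen after their values were seen, were the members of the beta and gamma clusters that lay below it in every library.

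**Figure D1:**
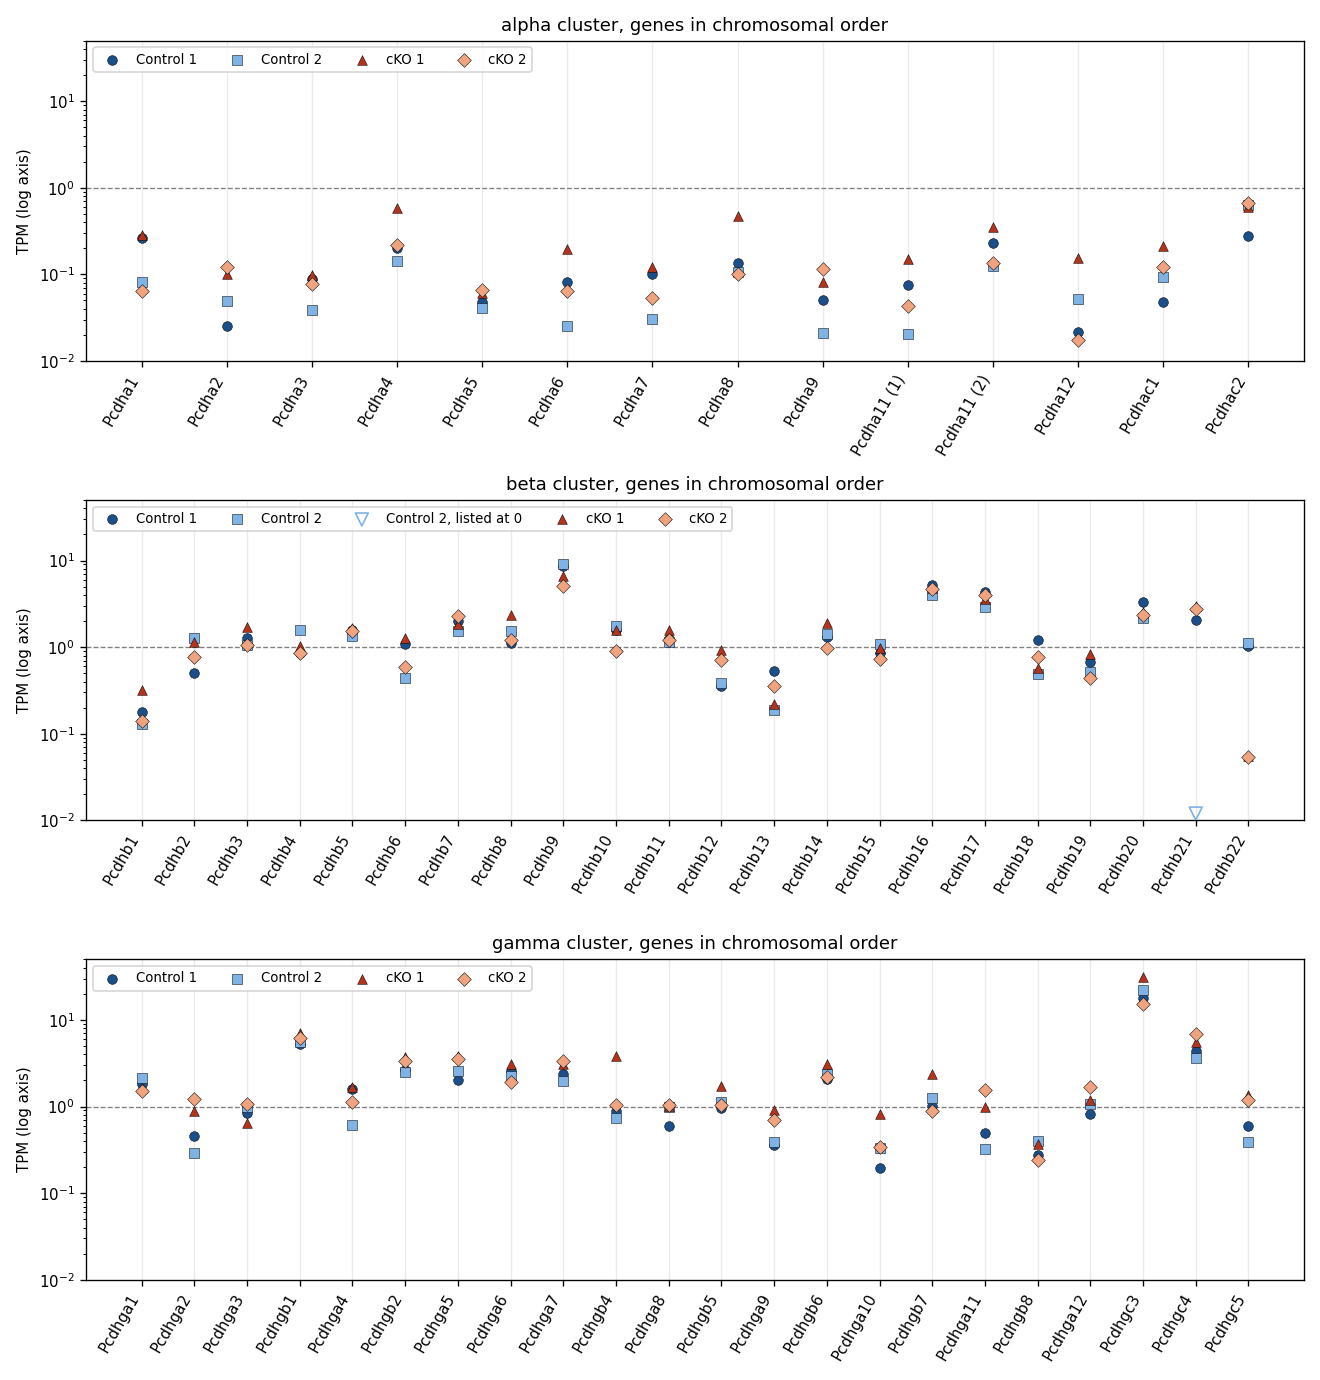
TPM (log axis) of each of the 58 members in each library, in chromosomal order within the alpha, beta and gamma clusters. Points are single libraries, the dashed line marks 1 TPM, the open triangle marks Pcdhb21 listed at 0 in Control 2, and Pcdha11 (1) and (2) are the rows of 2 gene identifiers that carry 1 symbol. All alpha genes stay under 1 TPM, Pcdhgc3 stands highest between 15.1 and 31.6 TPM, and Pcdhb22 is near 0.05 TPM in both cKO libraries.

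The most abundant member was Pcdhgc3 (ENSMUSG00000102918.1; chromosome 18, 37806364 to 37841873), a C-type isoform known outside the nervous system too. It had 18.1 TPM in Control 1, 22.3 in Control 2, 31.6 in cKO 1 and 15.1 in cKO 2, so the cKO libraries enclosed both Control libraries. It held between 26.5% and 41.0% of the gamma cluster's TPM. Its lowest library, 15.1 TPM, was above the highest library of any other member.

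The next members in order of mean TPM were Pcdhb9, Pcdhgb1, Pcdhgc4 and Pcdhb16. Pcdhb9 stood at 8.73, 9.22, 6.64 and 5.13 TPM in Control 1, Control 2, cKO 1 and cKO 2. Pcdhgb1 stood at 5.27, 5.62, 7.0 and 6.1 TPM in the same order. The ranges of these 2 genes overlapped, so their order was not larger than the spread between libraries.

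Pcdhgc4, a C-type isoform that in the nervous system is tied to neuronal survival, stood at 4.39, 3.60, 5.49 and 6.91 TPM in Control 1, Control 2, cKO 1 and cKO 2. Pcdhb16 varied less, at 5.25, 4.03, 4.87 and 4.68 TPM, and Pcdhb17 stood at 4.31, 2.91, 3.55 and 4.0 TPM. These 3 genes overlapped each other in range. Together Pcdhb9, Pcdhb16 and Pcdhb17, single-exon genes of the beta cluster, held between 37.2% and 45.8% of that cluster's TPM.

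Below them came Pcdhgb2, Pcdhga5, Pcdhga7, Pcdhb20, Pcdhga6 and Pcdhgb6, with mean levels over the 4 libraries from 3.06 TPM for Pcdhgb2 to 2.43 TPM for Pcdhgb6. In the order Control 1, Control 2, cKO 1 and cKO 2, Pcdhgb2 had 2.62, 2.53, 3.77 and 3.34 TPM. Pcdhga5 had 2.01, 2.6, 3.85 and 3.52 TPM, and Pcdhga7 had 2.36, 1.97, 3.07 and 3.32 TPM. These gamma A and gamma B genes reach the cell surface with the shared gamma cytoplasmic part. Pcdhb20, a beta gene without it, had 3.32, 2.15, 2.55 and 2.32 TPM in the same order. Pcdhga6 had 2.55, 2.27, 3.1 and 1.93 TPM, and Pcdhgb6 had 2.09, 2.4, 3.06 and 2.18 TPM. Neighbours in this order of means overlapped in range in every case. The remaining 46 members had mean levels from 1.94 TPM for Pcdhb21 down to 0.0541 TPM for Pcdha5, which was chosen after its values were seen.

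The C-type isoforms were not alike in level. Pcdhgc5 stood at 0.597, 0.389, 1.36 and 1.18 TPM in Control 1, Control 2, cKO 1 and cKO 2, and every library was below every library of Pcdhgc4. Pcdhac2 stood at 0.278, 0.631, 0.595 and 0.671 TPM and had the highest mean of the alpha genes. Pcdhac1 stood at 0.0477, 0.0936, 0.212 and 0.121 TPM, below the receptor median in every library.

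Between Control and cKO, 2 of the 58 members were called and the other members were not. All 58 passed edgeR's filter on low counts and were compared in a fit over 38143 genes. At an adjusted p under 0.05 by the Benjamini-Hochberg method, 1 member was called higher (Pcdhga11), where 0.364% of all genes tested were, and 1 was called lower (Pcdhb22), where 0.186% of all genes tested were. Since the contrast was in view when the family was chosen, nothing is read from these counts. In bulk RNA, fewer cells that express a gene and less of its RNA per cell cannot be told apart.

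The median log2 fold change (cKO over Control) was 0.76 over 14 alpha genes, -0.11 over 22 beta genes and 0.30 over 22 gamma genes, beside 0.06 over all genes tested. The value was positive for 13 alpha, 7 beta and 17 gamma genes, together 37 of 58, where 55.0% of all genes tested were positive. For 14 members the lower cKO library exceeded the higher Control library in counts scaled to library size (CPM), where 18.0% of all genes tested did, and for 6 both cKO libraries were lower, where 13.3% did. At an unadjusted p under 0.05 there were 4 higher members, all gamma, and 2 lower members, both beta, with 0 among the alpha genes, where 4.83% of all genes tested passed in either direction.

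**Figure D2:**
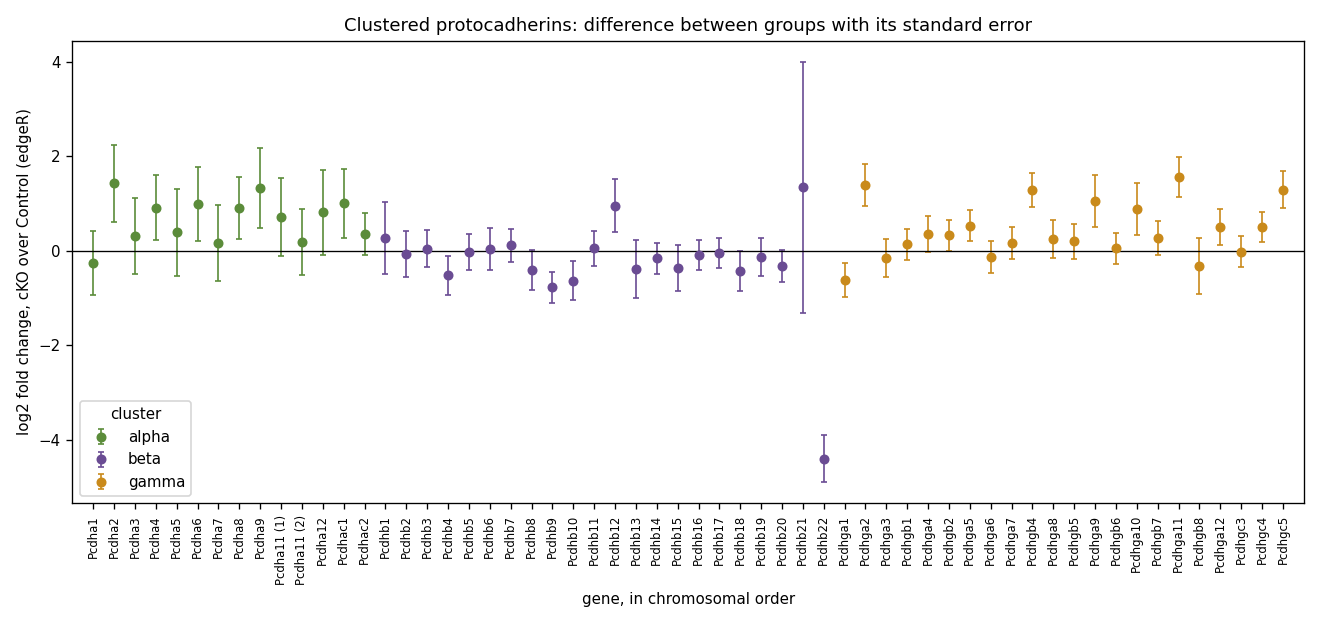
The log2 fold change (cKO over Control, edgeR) of each of the 58 members in chromosomal order, coloured by cluster, with bars for 1 standard error. Pcdhb22 stands apart at -4.41, most others lie between -1 and 1, and the wide bar belongs to Pcdhb21, which was listed at 0 in Control 2.

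Pcdhb22 (ENSMUSG00000073591.4; chromosome 18, 37517871 to 37524479), the last gene of the beta cluster, had the largest difference of the family. It stood at 4.07 and 4.39 CPM in Control 1 and 2, from 323 and 362 estimated counts. In cKO 1 and 2 it stood at 0.161 and 0.235 CPM, from 14 and 21 counts. The groups did not overlap, and both cKO libraries were low. The log2 fold change was -4.41 (SE 0.50). The value lay between -4.77 and -4.15 when any 1 library was left out.

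Pcdhb22 cannot be read without Pcdhb21, its upstream neighbour (ENSMUSG00000044022.5; 37513621 to 37518325). The 3′ end of the single Pcdhb21 exon, in its 3′ UTR, overlaps the start of the longer Pcdhb22 transcript by 455 bases on the same strand, which is 9.67% of Pcdhb21 and 6.88% of Pcdhb22. Pcdhb21 stood at 5.70, 6.23 and 8.23 CPM in Control 1, cKO 1 and cKO 2, and was listed at 0 in Control 2. A count of 0 allows up to 0.0364 CPM in that library, taking 3 counts as the limit and counting error only. The 3 other libraries held 452, 542 and 735 counts of Pcdhb21. It was not called with all 4 libraries and was called without Control 1, which leaves the library at 0 as the only Control.

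Control 2 therefore had Pcdhb22 and no Pcdhb21, both cKO libraries had Pcdhb21 and almost no Pcdhb22, and Control 1 had both. Summed over the pair, the level was 9.77 CPM in Control 1, 4.39 in Control 2, 6.39 in cKO 1 and 8.47 in cKO 2. The sums of the groups overlapped, with a log2 ratio of group means of 0.07. On the TPM scale the sums were 3.06, 1.13, 3.06 and 2.78 in the same order. They overlapped too, but the log2 ratio was 0.48. The deposited counts and TPM of Pcdhb22 fit an effective transcript length of 6606, 6618, 6646 and 6752 bases in Control 1, Control 2, cKO 1 and cKO 2, close to the 6609 bases of the longer, single-exon transcript and far from the 2266 bases of the spliced one. Nearly all Pcdhb22 counts were thus assigned to the transcript that overlaps Pcdhb21, though in cKO this rests on 14 and 21 counts. How reads in the overlapping stretch, or either gene as a whole, were assigned was not tested.

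**Figure D3:**
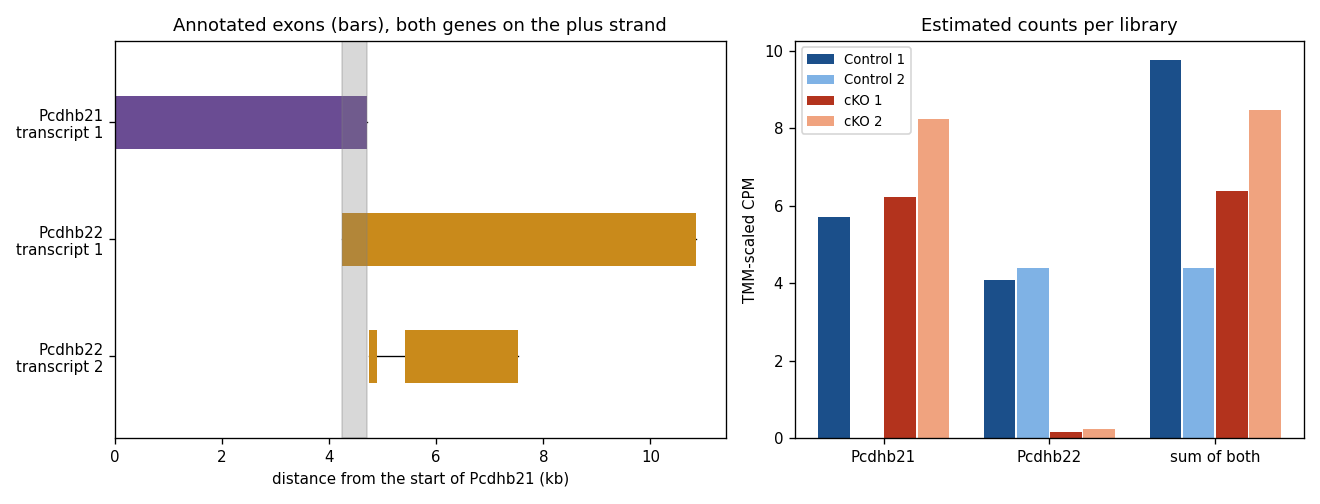
Left, annotated exons of Pcdhb21 and of the 2 Pcdhb22 transcripts to scale, as distance from the start of Pcdhb21 in kb, with the overlap of 455 bases shaded. Right, TMM-scaled CPM of each gene and of their sum in each library: Pcdhb21 has no bar in Control 2, Pcdhb22 is under 0.3 CPM in both cKO libraries, and the sums of Control (4.39 and 9.77) enclose those of cKO.

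The other beta genes gave smaller differences. Pcdhb9, the most abundant of them, had 15.9 CPM in Control 1, 16.6 in Control 2, 8.95 in cKO 1 and 10.1 in cKO 2, without overlap, with a log2 fold change of -0.77 (SE 0.32). Its neighbour Pcdhb10 had 2.72 CPM in Control 1, 2.92 in Control 2, 2.01 in cKO 1 and 1.64 in cKO 2, also without overlap (-0.63, SE 0.41). Neither was called with all 4 libraries, and Pcdhb9 was called when cKO 2 was left out (-0.93).

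Pcdhb16, Pcdhb17 and Pcdhb20, next in abundance in this cluster, overlapped between the groups. Their log2 fold changes were -0.10 (SE 0.32), -0.05 (SE 0.32) and -0.31 (SE 0.34), and for Pcdhb16 and Pcdhb17 the sign turned with the scaling by library totals. Over the whole beta cluster the summed level was 101.5 CPM in Control 1, 83.4 in Control 2, 72.9 in cKO 1 and 87.7 in cKO 2. The sums overlapped, and the log2 ratio of group means was -0.20, against -0.23 without Pcdhb21 and Pcdhb22. It was -0.05 both with library totals and on the TPM scale, so its size depended on the scaling too.

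In the gamma cluster the members with the largest positive differences were low in level. Pcdhga11 (ENSMUSG00000102742.1; chromosome 18, 37755731 to 37841873) had 1.42 CPM in Control 1, 0.898 in Control 2, 2.1 in cKO 1 and 4.72 in cKO 2, without overlap, with cKO 2 highest. The log2 fold change was 1.55 (SE 0.42). It was 0.79 without cKO 2, 1.92 without Control 1, 1.25 without Control 2 and 2.03 without cKO 1, and the call was lost in the first 3 of these. Under other settings the call was lost with a log2 fold change close to 1.55, at 1.54 in DESeq2, 1.52 with DESeq2 size factors, 1.63 with library totals, 1.54 without the filter on low counts and 1.58 with a minimum of 1 CPM. It was also lost in the limma fit that held this gene, at 0.68 on the log2(TPM + 1) scale.

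Pcdhga11 shares 72.4% of its 50-base words with other genes on either strand, through the constant exons and through the antisense gene Gm26672. Gm26672 had 2.23 CPM in Control 1, 2.50 in Control 2, 1.07 in cKO 1 and 1.61 in cKO 2, so here both cKO libraries were the lower ones. The sum of both genes was 3.66 CPM in Control 1, 3.40 in Control 2, 3.17 in cKO 1 and 6.33 in cKO 2, and these sums overlapped.

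Pcdhga2 and Pcdhgc5 were also at higher values in both cKO libraries, without being called. Pcdhga2 had 1.29 CPM in Control 1, 0.801 in Control 2, 1.84 in cKO 1 and 3.64 in cKO 2 (log2 fold change 1.39, SE 0.45). Pcdhgc5 had 2.05 CPM in Control 1, 1.14 in Control 2, 3.48 in cKO 1 and 4.37 in cKO 2 (log2 fold change 1.3, SE 0.40). Both were called when cKO 1 was left out, at 1.82 and 1.47. Pcdhgb4, picked out once its values were known, had 2.46 CPM in Control 1, 2.01 in Control 2, 7.78 in cKO 1 and 3.16 in cKO 2, with cKO 1 far above the rest, and was called only when cKO 2 was left out. Pcdhga9 (1.06) and Pcdhga1 (-0.62), also picked out once their values were known, did not overlap between the groups and were not called under any alternative.

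The abundant gamma genes had smaller differences. Pcdhgc3 had 49.7 CPM in Control 1, 60.3 in Control 2, 64.8 in cKO 1 and 44.0 in cKO 2. Its groups overlapped, and the log2 fold change was -0.02 (SE 0.33). Pcdhgb1 had 0.14 (SE 0.32), Pcdhgc4 had 0.50 (SE 0.32), with 13.9 CPM in cKO 2 against 8.27, 7.0 and 7.66 CPM in Control 1, Control 2 and cKO 1, and Pcdhga6 and Pcdhgb6 had -0.13 and 0.05. Pcdhgb2 and Pcdhga5 did not overlap between the groups, at log2 fold changes of 0.33 (SE 0.33) and 0.54 (SE 0.32), both higher in cKO, while the groups overlapped for Pcdhga7 at 0.17 (SE 0.33).

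A sum of CPM over the gamma cluster does not depend on how constant-exon reads were divided among its members, while a sum of TPM can. Either leaves out reads given to Gm38182, a noncoding gene on the same strand whose exons overlap those of every gamma gene. The level summed over the gamma cluster was 133.0 CPM in Control 1, 141.1 in Control 2, 159.0 in cKO 1 and 157.1 in cKO 2. The cKO sums exceeded both Control sums, at a log2 ratio of 0.21, or a ratio of 1.15. By subfamily, gamma A had a log2 ratio of 0.31, gamma B 0.27 and gamma C 0.11. Immune, endothelial, and Schwann and glial marker sums were higher in both cKO libraries too, but on the TPM scale. Cd68 was the largest part of the immune sum, while Ptprc, Csf1r and Adgre1 were below both Control libraries in cKO 2. In CPM the endothelial sum was not higher in cKO 1, though 6 of 8 endothelial log2 fold changes were positive. Tek, its largest part, had 98.3 CPM in Control 1, 71.1 in Control 2, 67.1 in cKO 1 and 87.7 in cKO 2. The part of these cell types in the gamma and alpha sums was not tested. The log2 ratio for the cluster ranged from 0.14 with DESeq2 size factors to 0.39 on the TPM scale. Its size therefore depended on the scaling by more than 1.5 times. The median of all genes tested moved with the scaling too, from -0.01 with DESeq2 size factors to 0.25 with library totals alone.

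Alpha genes other than Pcdhac2 stayed below the receptor median in every library. Sums over all 14 were 4.77 and 4.54 CPM in Control 1 and 2 and 7.43 and 6.18 CPM in cKO 1 and 2, without overlap, with a log2 ratio of 0.55. Of the 14 alpha genes, 7 had their highest CPM in cKO 1, the library with the highest receptor median, and the log2 ratio was 0.41 without it. The part of this background in the alpha difference was not tested. Counts of an alpha gene ranged from 6 to 227 per library. For 8 of 14 the Control libraries differed from each other by at least 2-fold, and for 3 of 14 the group means did. Over all genes tested the shares were 18.6% and 8.22%, and means of 2 libraries vary less than single libraries. Pcdhac1 and Pcdhac2 had log2 fold changes of 1.01 (SE 0.73) and 0.36 (SE 0.44).

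**Figure D4:**
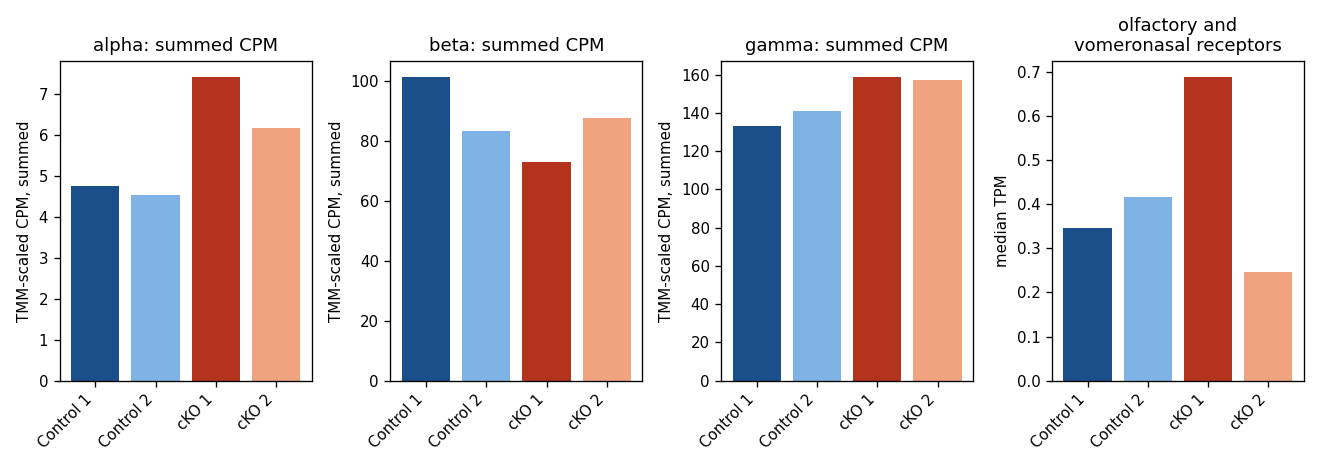
Bars give TMM-scaled CPM summed over the alpha, beta and gamma genes in each library (first 3 panels) and the median TPM of the 1436 smell and pheromone receptors (last panel). The gamma and alpha sums are higher in both cKO libraries, the beta sums overlap, and cKO 1 has the highest receptor median, 0.689 TPM.

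Libraries of the same group also differed. Scaled CPM differed by at least 2-fold between the 2 Control libraries for 14 of 58 members (24.1%), between the 2 cKO libraries for 11 (19%) and between group means for 10 (17.2%). Over all genes tested the shares were 18.6%, 28.5% and 8.22%. Pcdhga4, picked out once its values were known, had 4.45 CPM in Control 1 but 0.946 in Control 2, beside 3.47 in cKO 1 and 3.42 in cKO 2. Its counts and TPM fit an effective length of 2637 bases in Control 2 and of 4726 to 4728 bases in the other libraries, so in Control 2 a different mix of its transcripts was quantified. Pcdhga4 shares 66.8% of its exonic bases with other gamma genes, the largest share in the cluster, and how reads were divided between them was not tested. For Pcdhga7 the effective length was 3053 bases in cKO 2, against 4186, 4144 and 4093 in Control 1, Control 2 and cKO 1. A shorter length gives more TPM per count.

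Genes known to act with the clusters were compared in the same fit. Of 22 chromatin regulators of these promoters, edgeR called 0, with 1 (Dnmt3a) at an unadjusted p under 0.05 and 0 by DESeq2 or limma, and the median log2 fold change was -0.02. Ctcf, which anchors the loops, had 10.4 TPM in Control 1, 8.57 in Control 2, 9.88 in cKO 1 and 10.5 in cKO 2. Smchd1 stood at 35.4, 32.9, 38.7 and 38.8 TPM in the same order. Highest were the cohesin subunit Smc1a, with a mean of 102.1 TPM, the cohesin loader Nipbl with 57.0 TPM and the cohesin regulator Pds5a with 37.9 TPM.

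Of 24 cytoplasmic partners and proteases of protocadherins, edgeR called 0, with 0 at an unadjusted p under 0.05 and 0 by DESeq2 or limma (median -0.02). Ctnnb1, the beta-catenin of cadherin junctions and Wnt signalling, stood at 85.5, 92.8, 130.0 and 103.2 TPM in Control 1, Control 2, cKO 1 and cKO 2, and Brk1, a subunit of the WAVE actin-regulatory complex, at 131.6, 123.0, 110.8 and 114.2 TPM in the same order.

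Among the related genes outside the clusters, 0 of 12 nonclustered protocadherins were called in edgeR, with 1 (Pcdh9) at an unadjusted p under 0.05 and 0 by DESeq2 or limma (median -0.03). Pcdh18 had 39.7 TPM in Control 1, 36.9 in Control 2, 30.2 in cKO 1 and 29.3 in cKO 2, above Pcdhgc3 in 3 of the libraries. Pcdh7 had a mean of 11.03 TPM and Pcdh17 of 5.33 TPM. Of 15 Fat, Dachsous and related cadherins, 0 were called in edgeR, 0 had an unadjusted p under 0.05 and 0 were called by DESeq2 or limma (median 0.23). Cdh23, Fat1 and Fat4 were highest, with means of 5.31, 3.46 and 3.09 TPM.

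The protein-coding neighbours on chromosome 18, 18 genes within 250 kb of the clusters or between them, had 0 called in edgeR, 3 at an unadjusted p under 0.05 (Hars2, Diaph1 and Arap3) and 0 by DESeq2 or limma (median -0.13). Ndufa2, Hars and Slc35a4 were the highest, with means of 153.7, 148.2 and 90.7 TPM, far above any clustered protocadherin. Taf7 and Slc25a2, both chosen after their values were seen, lie between the beta and gamma clusters and had log2 fold changes of -0.16 and -0.50.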

How the data were processed

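RNA from 2 Control and 2 Rbfox2 cKO samples (10 ng each) was made into cDNA by the SMART-Seq protocol, per the labels' protocols. HISAT2 2.1.0, StringTie 1.3.6 and GRCm38 are listed in the submitters' processing notes, without their roles. The authors deposited estimated counts per gene, all of them whole, and TPM, which keep no depth. Which annotation release and strand setting they used is not given in the sources used here. Column names carry L01 for replicate 1 of each group and L02 for replicate 2, without saying what these mark. GENCODE M21 supplied exons, and 55094 of 55487 versioned identifiers were in it, all 58 members among them.

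The test on counts was edgeR 4.0.16 under R 4.3.3 (TMM, filterByExpr, robust quasi-likelihood test, Benjamini-Hochberg threshold 0.05, common biological coefficient of variation 0.373). The SE is the log2 fold change over the square root of F. CPM use TMM-scaled library sizes. Alternatives were DESeq2 1.42.0, other scalings and filters, leaving out each library, a replicate block, and limma 3.58.1 on TPM after log2(TPM + 1), for genes whose mean reached 1 TPM. Effective length is the count over TPM, scaled on genes with 1 transcript and over 200 counts. Scripts were tested on simulated data.

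The members and lists were chosen with earlier results of these data known. Values in every library are given for the 12 members with the highest mean TPM, called members, Pcdhb22, the 3 largest differences each way at a mean of at least 1 CPM, and C-type isoforms. From each list called genes and the 3 with the highest mean TPM are given, apart from 1 gene that is not reported here.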

Additional observations from a re-analysis of the deposited data

How the results depend on the processing

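The comparison is limited by 2 libraries a group and, for low members such as the alpha genes, by counts of 6 to 227 per library. Of the members, 1 was called higher and 1 lower with all libraries. The number called higher was 0 with DESeq2 size factors, library totals only, no filter, a minimum of 1 CPM in 2 libraries (41 members tested), DESeq2 and limma under each pseudocount and filter. It ranged from 0 to 3 with 1 library left out: Pcdhb21 without Control 1, none without Control 2, Pcdhga11, Pcdhga2 and Pcdhgc5 without cKO 1, and Pcdhgb4 without cKO 2. The number called lower was 0 in limma, whose mean filter dropped Pcdhb22 and whose fit without that filter gave it -0.98. It ranged from 1 to 2 with 1 library left out, with Pcdhb9 added without cKO 2.

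With the replicate number as a block, 0 members were called higher and 1 lower, and Pcdhga11, no longer called, had a log2 fold change of 1.47. Deviations of same-numbered libraries correlated at -0.16 over 16559 genes, and those of crossed numbers at 0.16. With 2 libraries a group these values mirror each other by construction, so they cannot decide whether the number pairs libraries. The fit given above used no block. A block with the numbers crossed, chosen after seeing the data, called 1 higher and 1 lower.

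Over all genes tested, calls higher and lower numbered 139 and 71. They were 66 and 53 with DESeq2 size factors, 179 and 103 with library totals, 16 and 12 without the filter, 36 and 24 with the minimum of 1 CPM, 52 and 41 in DESeq2 and 61 and 35 with the block. In limma they were 36 and 17, 62 and 40 with a pseudocount of 0.1, and 285 and 119 without the filter. With 1 library left out, they ranged from 26 to 606 higher and from 22 to 2016 lower, the highest without cKO 1 and without cKO 2.

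The log2 ratio of sums was 0.75 for alpha, -0.05 for beta and 0.38 for gamma with library totals, and 0.78, -0.05 and 0.39 on TPM. With DESeq2 size factors it was 0.47, -0.27 and 0.14. With 1 library left out it ranged from 0.41 to 0.68 for alpha, -0.34 to -0.05 for beta and 0.16 to 0.25 for gamma.

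Some log2 fold changes near 0 changed sign. With library totals they were 0.035 for Pcdhb16, 0.060 for Pcdhb17, 0.054 for Pcdhga6 and 0.20 for Pcdhgc3. With a minimum of 1 CPM in 2 libraries they were 0.0028 for Pcdhb17 and 0.11 for Pcdhgc3. Pcdhgb6 was -0.016 with DESeq2 size factors and -0.0067 in DESeq2. In limma, with a pseudocount of 1 and, in brackets, 0.1, they were 0.042 (0.052) for Pcdhb16, 0.066 (0.087) for Pcdhb17, 0.027 (0.027) for Pcdhga6 and 0.12 (0.12) for Pcdhgc3, and the same at a pseudocount of 1 without the filter. The cause was not tested. With 1 library left out, values ranged from -0.11 to 1.04 for Pcdhac2, -0.43 to 0.14 for Pcdhb16, -0.52 to 0.27 for Pcdhb17, -0.62 to 0.035 for Pcdhb20, -0.12 to 0.31 for Pcdhgb1, -0.019 to 0.31 for Pcdhga7, -0.052 to 0.13 for Pcdhgb6, -0.31 to 0.17 for Pcdhgc3 and -0.063 to 0.88 for Pcdhgc4.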
